A study of Canis lupus familiaris with 6 samples.

Results

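Long non-coding RNA (lncRNA) genes are transcription units for which no protein is annotated. Some lncRNAs hold nuclear bodies together or recruit chromatin proteins, and at many other loci the act of transcription, rather than the RNA, is thought to matter for genes nearby. When oxygen falls, hypoxia-inducible transcription factors accumulate and switch on genes of glucose uptake, pH control and blood vessel growth, and several human lncRNAs, NEAT1 among them, are known to be induced as well.

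The loci described here are the lncRNA genes of the dog that were detectably transcribed in a melanoma line and lay outside every protein coding gene. They were selected on measured values: an annotated lncRNA biotype, at least 60 gene reads summed over the 6 libraries, and a span from first to last position that overlapped no protein coding gene on either strand. That rule gave 1235 of the 29822 annotated genes. Of 6877 lncRNA genes in the annotation, 1790 had no read and 3852 had between 1 and 59. The overlap condition removed none, because no lncRNA gene of these files overlaps a coding gene. The read minimum takes hypoxia and normoxia together, so it does not use the difference between them, but a locus near the minimum that passed mainly through reads of one condition had to differ. It counts unscaled reads, and the hypoxia libraries held more gene reads (mean 28186651 against 25385258). The minimum therefore gives hypoxia somewhat more weight.

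The cells were of 1 line, CMM10, a melanoma line of the dog. It was cultured under hypoxia (3 libraries) or normoxia (3 libraries), with no genetic change named. The labels do not state an oxygen level, an exposure time or whether libraries of a condition came from separate cultures. The p-values therefore measure the spread between these libraries, which may be technical. Each library was made from polyadenylated RNA with a kit that does not mark the strand, so reads from overlapping genes on opposite strands cannot be told apart, and RNA without a poly(A) tail is under-represented.

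Libraries held 23196647 to 28804337 gene reads, of which 93.8% to 94.6% were uniquely mapped. All 4 textbook hypoxia genes that were checked rose, with CA9, a carbonic anhydrase, at 409 against 29.9 CPM (read counts per 1000000 reads of the scaled library size). All 10 melanocyte lineage genes were listed, and their summed level was 232 to 242 CPM under hypoxia and 196 to 207 under normoxia. The pigment genes TYR (0.11 and 0.22 CPM under hypoxia and normoxia), TYRP1 (0.02 and 0.02) and MLANA (0.56 and 0.75) were near 0. Other pigment genes were higher: SLC45A2 (91.7 and 65.9), DCT (37.6 and 44.2), PMEL (7.88 and 7.32) and GPR143 (2.34 and 2.26). S100B stood at 1.60 and 1.51, and the lineage factors MITF at 28.9 and 30.6 and SOX10 at 65.6 and 49.9. The 3 leukocyte genes summed to at most 1.70 CPM. The 3 endothelial genes summed to 13.8 to 16.6 CPM under hypoxia and 5.4 to 6.7 under normoxia, most of it VWF (14.3 and 5.23). Of the keratinocyte genes, 2 of 3 were listed, and their sum was 4065 to 4748 CPM under hypoxia and 886 to 912 under normoxia, nearly all of it KRT14. The fibroblast genes summed to 297 to 308 CPM under hypoxia and 243 to 262 under normoxia, nearly all of it COL1A1 (300 and 247). The part of these differences in the results that follow was not tested. In such bulk RNA, fewer cells that make a transcript and less transcript per cell cannot be told apart.

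The lncRNA loci were mostly weakly transcribed. Their median level was 0.569 TPM (the authors' deposited expression value, which takes exon length into account), against 18.7 for the protein coding genes tested, and 470 of the 1235 exceeded 1 TPM and 102 exceeded 10. A median locus had 3 exons and 1420 bases of exon, and 145 had a single exon. At the median locus, 77.8% of reads fell in introns, against 28.1% for coding genes, and 610 loci had at least 1 read across an exon junction. Reads were under 90% unique at 147 loci and under 50% unique at 46. The median distance to the nearest coding gene was 15030 bases. Another non-coding gene overlapped 306 of the loci, and at 252 of them it was a further lncRNA gene.

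Most loci that changed under hypoxia rose. Of 1224 loci with enough reads to test, 280 were higher and 62 lower under hypoxia, so that 81.9% of the changed loci rose. Across all 15397 genes tested, 24.5% were higher and 24.4% lower, and among protein coding genes 24.8% were higher and 26.3% lower. Of the lncRNA loci tested, 22.9% were higher, a share near that of all genes, and 5.07% were lower. Their median log2 fold change was 0.18, against 0.00 for all genes tested. The test was edgeR's quasi-likelihood test on gene reads, and called means a p below 0.05 after Benjamini-Hochberg adjustment over all genes tested. With library totals alone in place of TMM scaling, which corrects for a shift of many genes together, the loci gave 242 higher and 88 lower, and all genes 3076 higher and 4862 lower. The median of all genes moved to -0.07 and that of the loci to 0.12.

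Large changes were almost all rises. A rise of more than 2-fold was called at 153 loci, or 12.5% of those tested, against 4.81% of all genes tested. Between 0.3 and 1 CPM, however, such rises made up 12.40% of the loci and 12.45% of the coding genes tested. A fall of more than 2-fold was called at 8 loci (0.654%), against 0.481% of all genes. A rise beyond 4-fold was called at 35 loci, against 1.11% of all genes tested, and a fall beyond 4-fold at none, against 0.0325% of all genes. The 3 libraries of one condition did not overlap the 3 of the other at 449 loci (36.7%), against 55.3% of all genes tested. Reads were few on the lower side of many calls: 45 of the 280 loci called higher had fewer than 30 normoxia reads in all, and 4 of the 62 called lower had fewer than 30 hypoxia reads.

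**Figure D1:**
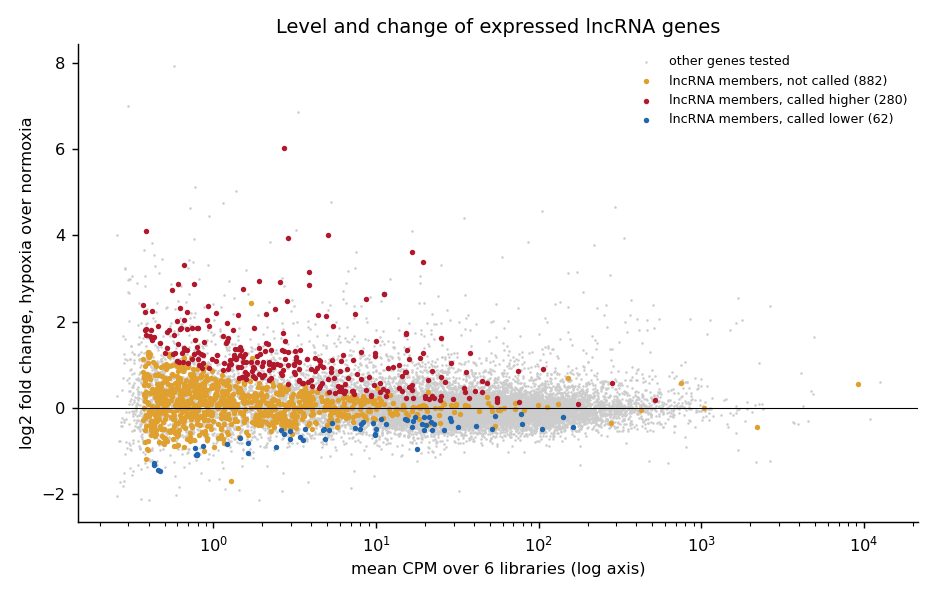
Each point is 1 gene, with its mean CPM over the 6 libraries on a log axis and its log2 fold change (hypoxia over normoxia). Coloured points are the 1224 lncRNA loci tested (280 called higher, 62 called lower), grey points are the other genes tested, and the points beyond 4-fold among the loci all lie above 0.

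Coding genes with as few reads also had more rises than falls. Between 0.3 and 1 CPM, 62 of 476 lncRNA loci were higher and 9 lower (13.03% and 1.89%), and 150 of 1157 coding genes were higher and 20 lower (12.96% and 1.73%). Between 1 and 3 CPM, 24.9% of 345 loci were higher and 2.61% lower, against 17.2% and 5.47% of 1189 coding genes. Between 3 and 10 CPM, 30.2% of 235 loci were higher and 6.38% lower, against 26.4% and 12.1% of 1833 coding genes. At 10 CPM or more the sets lay furthest apart: 61 of 168 loci were higher and 29 lower (36.3% and 17.3%), while 26.8% of 9871 coding genes were higher and 34.3% lower. Called rises of more than 2-fold were about equally frequent in the 2 sets in the lowest class (12.40% of loci and 12.45% of coding genes). They made up 15.9% and 8.16% between 1 and 3 CPM, and 10.6% and 5.95% between 3 and 10 CPM. At 10 CPM or more they made up 8.33% and 2.26%. The bounded classes match read numbers roughly, not levels per length. The class of 10 CPM or more has no upper bound, so read numbers are not matched within it. Over all levels the median was 28.1 CPM for the coding genes tested and 1.48 for the loci. The difference between the sets was not tested because genes are not replicates.

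**Figure D2:**
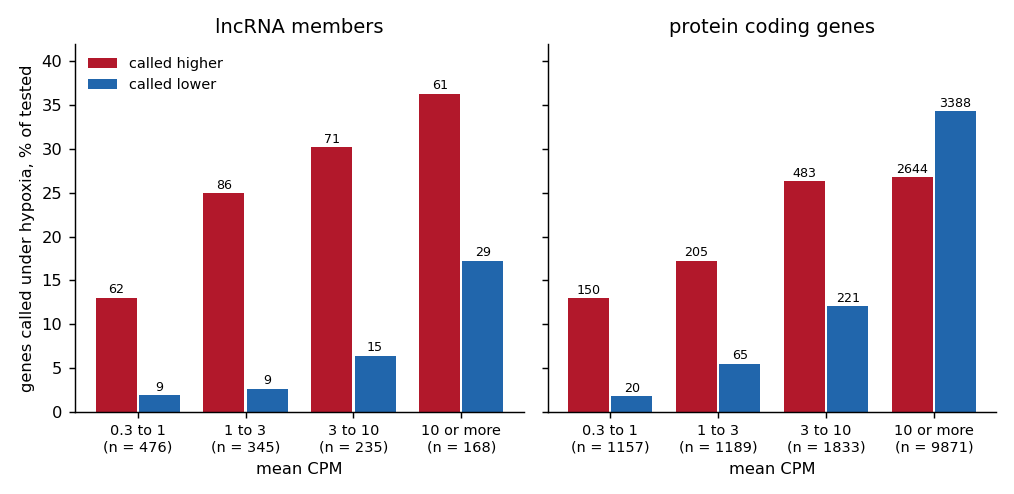
Bars give the percent of genes tested that were called higher (red) or lower (blue) under hypoxia in 4 classes of mean CPM, for lncRNA loci (left) and protein coding genes (right), with the number of genes above each bar. In the lowest class the 2 panels have almost the same heights, and at 10 CPM or more red exceeds blue for the loci (61 and 29) and blue exceeds red for the coding genes (2644 and 3388).

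The shares were similar at each distance from coding genes, with 21.7% to 24.3% higher and 4.73% to 5.41% lower, whereas large rises were more frequent further out. Loci under 5 kb from the nearest coding gene had 96 higher and 22 lower of 442, those at 5 to 50 kb 102 and 24 of 444, and those beyond 50 kb 82 and 16 of 338. Called rises of more than 2-fold made up 8.14%, 13.96% and 16.3% of the 3 classes, and the median log2 fold changes were 0.13, 0.19 and 0.27. The differences between the classes were not tested.

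Nearly all loci carry only an Ensembl identifier, and the files do not pair these with names. The loci are therefore named by position on the CanFam3.1 build and by the nearest coding genes with a symbol on either side. Closer coding genes without a symbol were passed over for the names. They do count in the distance classes and as nearest coding genes. The flanking genes locate a transcript and say nothing of its function. None of 37 lncRNA symbols that were looked up, NEAT1 and MALAT1 among them, occurs as a name in the files.

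Among loci that averaged at least 0.5 CPM, the largest rise lay between ADGRA1, an adhesion G protein coupled receptor gene, and VENTX, a homeobox gene (ENSCAFG00000049178, chr28:40749690-40798399, plus strand, 2690 bases downstream of ADGRA1). It stood at 5.64, 5.91 and 4.46 CPM in hypoxia replicates 1 to 3 and at 0.04, 0.15 and 0.04 CPM in normoxia. The hypoxia libraries held 442 of its reads and the normoxia libraries 6, and the conditions did not overlap. Its mean rose from 0.075 ± 0.061 to 5.34 ± 0.77 CPM (SD, n = 3 per condition), a log2 fold change of 6.03 ± 0.36 (SE, as for every fold change here, edgeR adjusted p = 1.76e-15). Without normoxia replicate 2, which held most of the 6 normoxia reads, the change was 6.91. Introns held 98.2% of its reads and no read crossed an exon junction. ADGRA1 itself had too few reads to be tested.

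On chr1:106125960-106131042, between the synaptic scaffold gene SHANK1 and the uncharacterised gene C1H19orf81, the level was 31.4, 29.3 and 31.8 CPM under hypoxia and 2.60, 2.29 and 2.69 CPM under normoxia. The replicates of each condition were close together and the conditions far apart (log2 fold change 3.61 ± 0.11, edgeR adjusted p = 1.00e-23). C1H19orf81, which ends 1147 bases away on the other strand, had a log2 fold change of 2.87 (edgeR adjusted p = 9.06e-05). Its level was only 0.97 CPM under hypoxia and 0.13 under normoxia. Reads past the end of the lncRNA locus cannot be told apart from it.

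The locus between PDE9A, a cyclic GMP phosphodiesterase gene, and WDR4 (chr31:37050729-37055676) had 9.40, 8.42 and 10.8 CPM under hypoxia and 0.87, 0.29 and 0.63 CPM under normoxia. Introns held 19.01% of its reads, and 23 reads crossed an exon junction. Its exons make up 4633 of its 4948 bases, against 1459 of 48710 at the ADGRA1 locus. The intron shares of the 2 loci are therefore not comparable. The log2 fold change of the PDE9A locus was 3.998 ± 0.22 (edgeR adjusted p = 1.34e-15), and PDE9A rose too, by 1.17 on the log2 scale.

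Between MME, which encodes the peptidase neprilysin, and PLCH1 (chr23:49099461-49108184) the level was 5.42, 4.87 and 5.93 CPM under hypoxia and 0.49, 0.29 and 0.25 CPM under normoxia. The log2 fold change was 3.95 ± 0.26, with no overlap between conditions. Near PANX1, which encodes a channel protein, the locus at chr21:6648261-6663198 had 6.52, 7.70 and 6.80 CPM under hypoxia and 0.72, 0.95 and 0.67 CPM under normoxia (log2 fold change 3.16 ± 0.20). PANX1 did not pass the test, with a log2 fold change of -0.04.

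Of the 8 largest rises, 2 had under 4 CPM in every library. Between HAAO and ZFP36L2 (chr10:45672099-45681521) values were 1.45, 0.97 and 1.17 CPM under hypoxia against 0.11, 0.11 and 0.13 CPM under normoxia (log2 fold change 3.32 ± 0.49, 99 against 9 reads). The HAAO locus passed the read minimum mainly through its hypoxia reads. ZFP36L2, an RNA decay factor gene 67414 bases away, rose by 1.00. Between TLR4 and BRINP1 (chr11:71401871-71493002) values were 3.26, 3.40 and 3.48 CPM against 0.57, 0.40 and 0.34 CPM (log2 fold change 2.94 ± 0.29). All 8 of the largest rises kept their call in every alternative that could test them.

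Around ADRA1B, the gene of an alpha-1 adrenergic receptor for noradrenaline, 4 lncRNA loci were called higher. This stretch was singled out after its values were seen, apart from 1 locus that the naming rule took. Between ADRA1B and IL12B only called loci were taken, so the share of loci there that rose is not given. The strongest of the 4 (ENSCAFG00000048172, chr4:51046634-51092458) lies 321634 bases from ADRA1B and 91109 from IL12B. It had 32.4, 39.0 and 35.7 CPM under hypoxia and 2.75, 3.71 and 3.82 CPM under normoxia. Its log2 fold change was 3.38 ± 0.11 (edgeR adjusted p = 1.16e-22), and 99.9% of its reads lay in introns. The next locus along, on the other strand (chr4:51096794-51135546), had 5.25, 5.59 and 3.59 CPM against 0.75, 1.02 and 0.80 CPM, a log2 fold change of 2.48 ± 0.24. Closer to the receptor gene, chr4:50780909-50848773 had 2.73, 2.33 and 3.32 CPM against 0.57, 0.98 and 0.75 CPM (1.85 ± 0.28).

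The last of the 4, a single exon of 1014 bases, lies 77 bases tail to tail from ADRA1B (chr4:50676164-50677177), so reads past the end of the receptor gene cannot be told apart from it. It had 23.8, 23.7 and 19.04 CPM under hypoxia and 8.83, 9.27 and 8.18 CPM under normoxia, a log2 fold change of 1.34 ± 0.10. None of the 4 overlapped between conditions. ADRA1B rose from 160 ± 5.4 to 464 ± 5.8 CPM, a log2 fold change of 1.54, and TTC1 beyond it by 0.66. On the far side IL12B was near 0 in both conditions (0.39 and 0.35 CPM) and UBLCP1 fell by 0.32, so the rise did not extend to every gene of the region.

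Several well-covered rises outside the naming rule were chosen after their values were seen, for their small adjusted p. On chrX:42501985-42583490, between PPP1R3F and the chloride transporter gene CLCN5, values were 18.6, 19.4 and 19.9 CPM under hypoxia and 2.91, 3.60 and 2.69 CPM under normoxia (log2 fold change 2.65 ± 0.12). This locus was spliced, with 1017 reads across exon junctions and 29.6% of reads in introns. Between SOCS5, a suppressor of cytokine signalling, and MCFD2 (chr10:49045863-49067455) values were 20.1, 18.5 and 18.9 CPM against 2.49, 3.56 and 3.23 CPM (log2 fold change 2.63 ± 0.12). It too had junction reads, 402 in all. At both loci the conditions stood far apart.

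**Figure D3:**
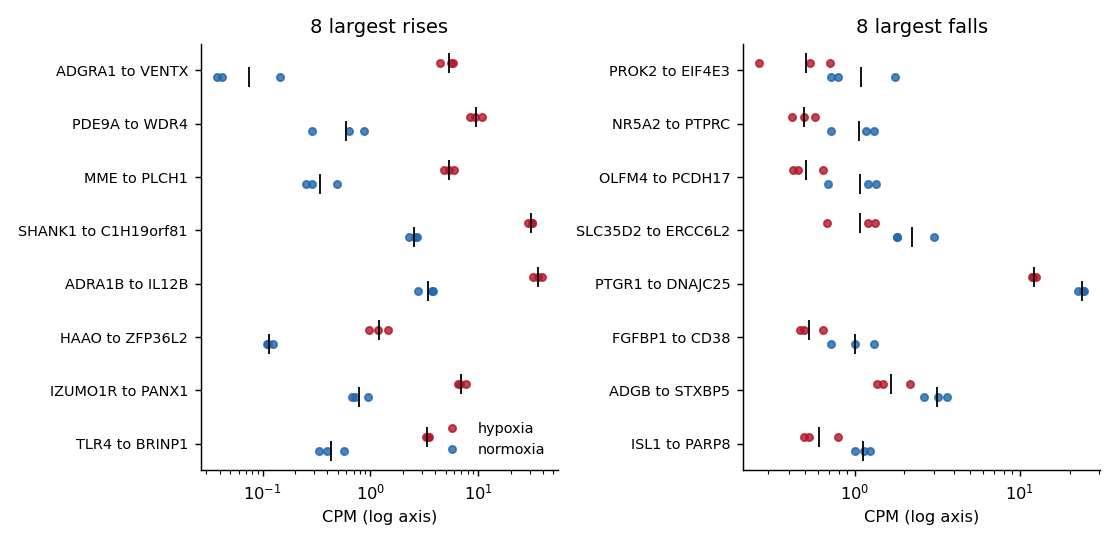
CPM of each library on a log axis for the 8 largest rises (left) and 8 largest falls (right), each locus labelled by its flanking coding genes. Red points are hypoxia libraries, blue points normoxia libraries and black ticks the means. In the left panel the conditions are far apart at every locus, and in the right panel most loci lie near 1 CPM with neighbouring conditions. The PTGR1 to DNAJC25 locus, at 12.2 and 23.7 CPM, is the fall with the highest level.

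The 8 largest falls among loci that averaged at least 0.5 CPM were small and mostly at low levels. The exception in level lay 674 bases head to head from PTGR1, which encodes an enzyme that inactivates prostaglandins and leukotrienes (ENSCAFG00000048168, chr11:66209894-66210937, 1 exon). It had 12.1, 12.5 and 11.8 CPM under hypoxia and 24.1, 24.5 and 22.4 CPM under normoxia. The log2 fold change was -0.96 ± 0.08 (edgeR adjusted p = 1.65e-11). PTGR1 fell nearly as much, from 1061 ± 15 to 564 ± 14 CPM (log2 fold change -0.91).

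Past DNAJC25 on the same chromosome, a locus beside SHOC1 went the other way (chr11:66270650-66276078, chosen after its values were seen). Its values were 52.0, 54.3 and 53.6 CPM under hypoxia and 20.6, 21.2 and 24.9 CPM under normoxia, a log2 fold change of 1.27 ± 0.07. On exon reads alone the change was 2.74. SHOC1, a meiotic gene at the low level of 1.64 CPM under normoxia and 3.30 under hypoxia, rose by 1.00.

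The locus between ADGB and STXBP5 (ENSCAFG00000041477, chr1:37927529-38111772) had 2.16, 1.36 and 1.47 CPM under hypoxia and 2.64, 3.63 and 3.19 CPM under normoxia. All of its reads lay in introns, and its log2 fold change was -0.92 ± 0.23 (edgeR adjusted p = 0.00145). This call and that of the PTGR1 locus held in every alternative that could test them.

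The calls of the other 6 falls each depended on single libraries. Between SLC35D2, a nucleotide sugar transporter gene, and ERCC6L2 (chr1:70646757-70653288) values were 1.20, 0.68 and 1.32 CPM under hypoxia and 1.81, 3.02 and 1.80 CPM under normoxia (log2 fold change -1.05 ± 0.30, edgeR adjusted p = 0.00366). Without normoxia replicate 2, its highest library, the change was -0.76 and was no longer called, as on intron reads alone (-0.76). SLC35D2 itself rose by 1.10. Between PROK2 and EIF4E3 on chromosome 20 (0.504 against 1.09 CPM) the log2 fold change of -1.10 became -0.58 without normoxia replicate 2. The call was also lost without hypoxia replicate 2 or 3 (-1.15 and -0.81) and with DESeq2.

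The loci between NR5A2 and PTPRC on chromosome 7, OLFM4 and PCDH17 on chromosome 22, FGFBP1 and CD38 on chromosome 3, and ISL1 and PARP8 on chromosome 4 had log2 fold changes of -1.10, -1.07, -0.92 and -0.89. None had more than 88 reads in a condition. The NR5A2 call was lost without hypoxia replicate 1 or 3 or normoxia replicate 2 or 3, where its change was -1.10, -0.99, -0.92 and -1.03. The OLFM4 call was lost without hypoxia replicate 1 or 3 or normoxia replicate 1 or 3 (-0.96, -1.001, -0.98 and -0.90). That of FGFBP1 was lost without hypoxia replicate 1, 2 or 3 or normoxia replicate 2 or 3 (-1.07, -0.83, -0.87, -0.69 and -0.93). That of ISL1 was lost without hypoxia replicate 1 or 3 or normoxia replicate 1, 2 or 3 (-0.81, -0.77, -0.89, -0.82 and -0.97). Neither of these last 2 was called with DESeq2 or with no filter on low counts.

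Better covered falls were smaller, and those given here were chosen after their values were seen for their small adjusted p. Between USP46, a deubiquitinase gene, and RASL11B (chr13:45476448-45482656) values were 86.7, 87.5 and 87.5 CPM under hypoxia and 126, 124 and 114 CPM under normoxia (log2 fold change -0.48 ± 0.04). Beside ZNFX1 (chr24:35956372-35960473) they were 44.7, 38.3 and 46.1 CPM against 56.8, 60.1 and 65.9 CPM (-0.50 ± 0.07). Both loci overlap small nucleolar RNA genes, the USP46 locus also overlaps a lncRNA gene on the other strand that fell by 0.49, and at the ZNFX1 locus 1956 reads crossed exon junctions. ZNFX1 itself, 2201 bases away, rose by 0.10 (edgeR adjusted p = 0.0379). Next to ANGPT1, the gene of the vessel factor angiopoietin, chr13:7926150-7978063 had 15.8, 16.5 and 16.1 CPM against 22.8, 21.9 and 24.6 CPM (-0.52 ± 0.08), and ANGPT1 fell by 0.40. In all 3 the conditions did not overlap.

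Of the 8 loci with the highest mean CPM, 2 were called, both higher. The locus with the most reads lies at the end of chromosome 7 (chr7:80947950-80974512), 126682 bases past MAPK4 and 9299 past a coding gene without a symbol. Its values were 5765, 11456 and 15974 CPM under hypoxia and 5086, 7971 and 9432 CPM under normoxia. The replicates spread about as widely as the conditions (log2 fold change 0.56 ± 0.48, edgeR adjusted p = 0.415). Only 2.71% of its reads were unique, and on unique reads alone the direction turned.

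On CPM of unique reads (relative to all unique gene reads), the same locus had 204, 227 and 204 under hypoxia and 316, 341 and 319 under normoxia. That is a log2 fold change of -0.56 ± 0.04 (edgeR adjusted p = 4.92e-15). A second lncRNA gene covers most of it on the opposite strand (chr7:80952562-80974512) with 2.04% unique reads. Its change was -0.45 ± 0.20 on all reads (edgeR adjusted p = 0.15) and -0.55 ± 0.12 on unique reads (edgeR adjusted p = 0.00888). Most reads of this pair were thus not uniquely mapped, and their origin was not tested.

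This pair also set the share of all reads that the lncRNA loci took. All 1235 loci took 1.80%, 2.45% and 2.84% of gene reads under hypoxia and 1.71%, 2.16% and 2.29% under normoxia, which overlap. The means were 2.36 ± 0.53% and 2.05 ± 0.31% (n = 3, two-sided exact permutation p = 0.4). Without the pair the shares were 1.10 ± 0.03% and 1.03 ± 0.03%, which did not overlap (exact permutation p = 0.1, the smallest that 3 against 3 can give).

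A pair of overlapping lncRNA genes on opposite strands near TBC1D32 on chromosome 1 was as variable, with unique reads. The gene at chr1:60597757-60599664 had 454, 875 and 1369 CPM under hypoxia and 482, 640 and 675 CPM under normoxia (log2 fold change 0.59 ± 0.46, edgeR adjusted p = 0.38). Its partner at chr1:60586853-60599041 had 212, 280 and 250 CPM against 251, 302 and 391 CPM (-0.34 ± 0.22, edgeR adjusted p = 0.273). Neither was called, and the conditions overlapped in both.

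Of the steadier loci, the one between DHX37 and ENY2 (chr26:5007515-5008120) had 1031, 1036 and 1062 CPM under hypoxia and 1076, 1068 and 1008 CPM under normoxia, a log2 fold change of -0.01 ± 0.03. The locus downstream of MYC (chr13:25249066-25438884), the gene of a growth-promoting transcription factor that in humans is followed by the lncRNA gene PVT1, had 433, 420 and 410 CPM against 435, 438 and 427 CPM. Its change was -0.04 ± 0.03 and MYC's -0.08. Neither locus nor MYC was called. With library totals alone both loci were called lower (-0.08 and -0.11), and on exon reads the MYC locus was called lower (-0.19).

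The 2 called loci of this group were at LAG3 and at CD44. Between LAG3, an immune checkpoint receptor gene, and MLF2 (chr27:38266270-38283987), values were 574, 560 and 528 CPM under hypoxia and 479, 529 and 453 CPM under normoxia. The conditions overlap slightly, and the change of 0.19 ± 0.05 (edgeR adjusted p = 0.00702) was lost with library totals alone (0.12) and on intron reads alone (0.19). This locus was the most heavily spliced of the group, with 43463 junction reads. At chr18:32728984-32737698, 208 bases tail to tail from CD44, the gene of a hyaluronan receptor, values were 341, 319 and 357 CPM against 225, 225 and 228 CPM (log2 fold change 0.59 ± 0.04, edgeR adjusted p = 1.38e-14). CD44 rose by 0.69, and since strand was not recorded, reads running past the end of CD44 cannot be told apart from the lncRNA.

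**Figure D4:**
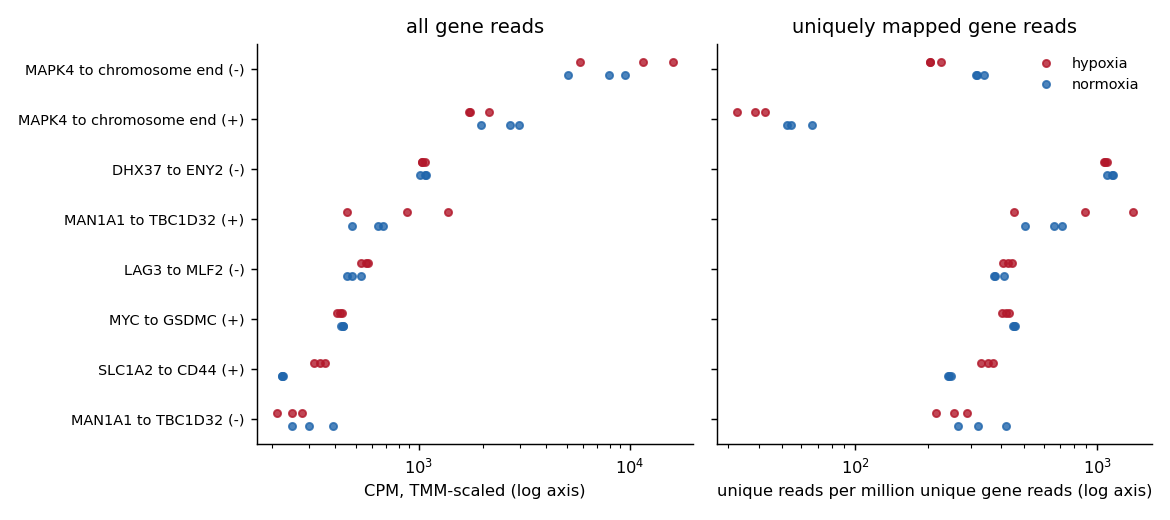
Level of the 8 loci with the most reads in each library, on log axes: TMM-scaled CPM of all gene reads (left) and CPM of unique reads relative to unique gene reads (right). Labels give the flanking coding genes and the strand. The top pair past MAPK4 has 1719 to 15974 CPM on the left and 32.4 to 341 on the right, and on the right its 3 normoxia points lie above its 3 hypoxia points in both rows.

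Where a locus and its nearest coding gene were both called, most pairs moved the same way, and the share was highest at short range. Among 1028 pairs in which both were tested, both were called in 185, and in 150 of these (81.1%) they moved the same way: 129 both higher and 21 both lower. In 28 pairs the lncRNA rose and the coding gene fell, and in 7 the reverse. Under 5 kb, 67 of 76 called pairs moved the same way (88.2%), at 5 to 50 kb 51 of 64 (79.7%) and beyond 50 kb 32 of 45 (71.1%). Since most called genes in these pairs were higher on both sides (84.9% of the loci and 73.5% of the neighbours), those 2 shares alone give 66.4% agreement overall. The same product gives 65.6% under 5 kb, 68.3% at 5 to 50 kb and 64.7% beyond 50 kb, so the observed share beyond 50 kb was close to it. Across pairs, the log2 fold changes had a Pearson r of 0.53 under 5 kb (n = 414), 0.25 at 5 to 50 kb (n = 369) and 0.29 beyond 50 kb (n = 245). These are descriptions over genes of the same 6 libraries, some of which share a neighbour (887 distinct coding genes in 1028 pairs).

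By orientation under 5 kb, the highest share and r were tail to tail, where 20 of 21 called pairs moved the same way and r was 0.73 (n = 86). Head to head pairs gave 22 of 27 (r = 0.51, n = 176). A lncRNA downstream of the coding gene on its strand gave 15 of 16 (r = 0.32, n = 63), and one upstream 10 of 12 (r = 0.48, n = 89). In tail to tail and downstream positions, reads past the annotated coding end and lncRNA reads cannot be told apart. In head to head and upstream positions the same holds for reads of an unannotated start of the coding gene.

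**Figure D5:**
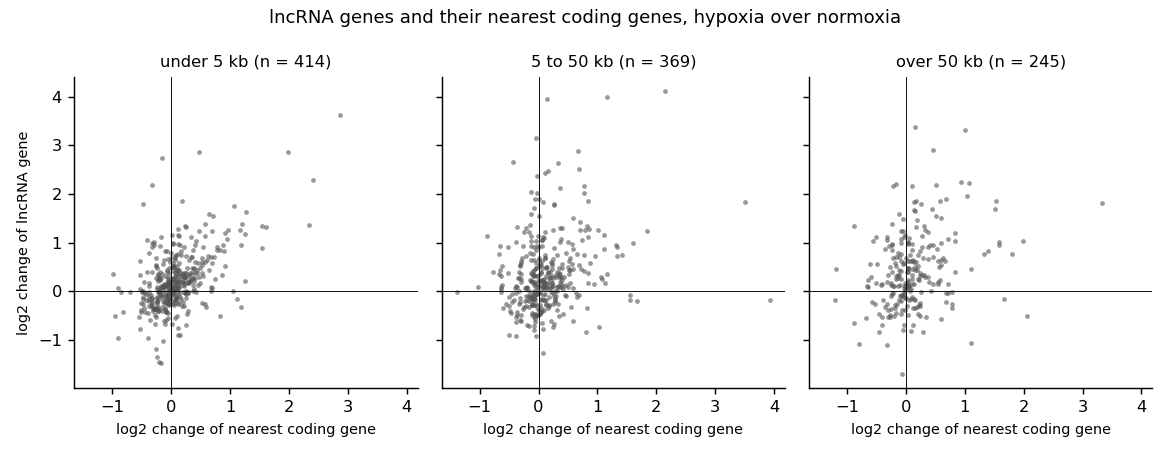
Each point is 1 lncRNA locus with its log2 fold change (vertical axis) against that of its nearest coding gene (horizontal axis), hypoxia over normoxia, in 3 classes of distance with the number of pairs. The points lie closer to a rising diagonal under 5 kb (r 0.53) than at 5 to 50 kb (0.25) or beyond 50 kb (0.29).

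Examples, chosen after their values were seen, show both patterns. The locus 379 bases upstream of SLC16A3, the lactate exporter gene (chr9:117732-125460), had 4.50, 4.16 and 3.21 CPM under hypoxia and 0.79, 1.02 and 0.59 CPM under normoxia. It rose by 2.29 ± 0.25, and SLC16A3 by 2.40. Introns held 88.5% of its reads and no read crossed an exon junction. The locus 128 bases head to head from DENND2A, a Rab regulator gene (chr16:8372438-8376187), had 1.10, 1.15 and 0.95 CPM against 0.15, 0.07 and 0.21 CPM. It rose by 2.87 ± 0.49, and DENND2A by 1.98. With 88 hypoxia and 11 normoxia reads, this locus passed the read minimum mainly through its hypoxia reads. Its rise is therefore weak evidence of joint movement. Beside IRF2BP2, a transcriptional corepressor gene (chr4:5231339-5243336), values were 4.29, 3.798 and 4.23 CPM against 0.91, 1.34 and 1.43 CPM, a rise of 1.74 ± 0.22, and IRF2BP2 rose by 1.06. Downstream of AFAP1, an actin filament gene, the locus at chr3:59686887-59688428 had 36.6, 37.6 and 38.9 CPM against 11.4, 11.7 and 13.6 CPM. It rose by 1.63 ± 0.08, and AFAP1 by 1.27. In each of these the conditions stood apart at both genes.

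The opposite pattern was found on chromosome 6. Within the interval between MLST8, a subunit gene of the mTOR complexes, and TRAF7, a signalling adaptor gene, 2 loci rose. They lie close together on the minus strand, and whether they are parts of 1 transcript was not tested. At chr6:38767414-38786147 values were 13.01, 12.3 and 11.1 CPM under hypoxia and 2.57, 3.02 and 2.39 CPM under normoxia (2.18 ± 0.14). At chr6:38786514-38787728 they were 2.73, 3.37 and 1.81 CPM against 0.15, 0.18 and 0.88 CPM (2.75 ± 0.47, and 3.95 without normoxia replicate 3). MLST8 fell by 0.32 and TRAF7 by 0.15. Nearby, a locus 267 bases from the cyclin gene CCNF (chr6:38592703-38593885) rose by 1.80 ± 0.54 while CCNF fell by 0.47. The level of this locus was only 0.59 CPM under hypoxia and 0.17 under normoxia. With 49 hypoxia and 13 normoxia reads, it lay close to the read minimum and passed mainly through its hypoxia reads. Such a locus had to differ, so its rise is weak evidence of opposite movement. Over all 153 loci that rose more than 2-fold, the nearest coding gene was called higher at 73, lower at 15 and not called at 40, and at 25 it had too few reads. Of all protein coding genes tested, 24.8% were higher and 26.3% lower.

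Neighbouring lncRNA loci were compared with each other as well. Tested loci within 10 kb of each other formed 85 groups with 176 members. In 16 groups at least 2 members were called, and they were all higher in 14 and all lower in 2. Of all called loci 81.9% were higher, against which this agreement has to be read. In 8 of the 16 groups called members overlap, and their unstranded reads cannot be told apart.

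The type of read did not turn a call. Of the 280 loci called higher, 170 could be tested on exon reads alone, and 105 of these were called higher and none lower. On intron reads alone 240 could be tested, with 206 called higher and none lower. Of the 62 called lower, 44 could be tested on exon reads, with 30 called lower, and 54 on intron reads, with 32 called lower, and none was called higher on either. On unique reads 272 of 275 and 59 of 62 kept their call.

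A small group of loci carry the lncRNA biotype together with a gene symbol. All 19 such symbols belong to protein coding genes in the RefSeq gene table for the dog, so the biotype in the files and that table differ. Of the 19, 6 were higher and 5 lower (31.6% and 26.3%, against 24.5% and 24.4% of all genes tested), and the counts without them were 274 higher and 57 lower of 1205.

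JUN, a subunit of the AP-1 transcription factor, had 140, 147 and 129 CPM under hypoxia and 67.3, 78.4 and 76.9 CPM under normoxia (log2 fold change 0.91 ± 0.06, edgeR adjusted p = 4.54e-11). Its row spans chr5:50945210-51012677, overlaps further non-coding genes and has 73.9% unique reads. YPEL5 of the Yippee family had 40.9, 37.8 and 37.1 CPM against 17.6, 18.4 and 20.8 CPM (1.03 ± 0.07), and its relative YPEL1, chosen after its values were seen, rose by 0.82. CHST1, a keratan sulfate sulfotransferase, rose by 0.58, and GNG7, a G protein gamma subunit, by 0.28, a call lost without hypoxia replicate 1 or normoxia replicate 2 or 3 (0.26, 0.25 and 0.27), with library totals (0.22) and on exon reads (0.03). RUNX1T1, a transcriptional corepressor also chosen after its values were seen, rose by 1.07, a call lost on exon reads (0.86).

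SLC23A2, a vitamin C transporter, had 134, 139 and 142 CPM under hypoxia and 191, 192 and 186 CPM under normoxia (log2 fold change -0.45 ± 0.04, edgeR adjusted p = 7.10e-12). TNIP2, an inhibitor of NF-kappaB signalling, fell by 0.43, PHF19, a Polycomb accessory protein, by 0.45, and BANF1, which ties DNA to the nuclear envelope, by 0.20, a call lost on intron reads (-0.30). AMIGO1, a neuronal adhesion protein chosen after its values were seen, fell by 0.71, a call lost on exon reads (-0.47). UBE2T, a ubiquitin conjugating enzyme, and MAGED1 were not called (0.01 and 0.09). The conditions did not overlap at the called genes of this group named here.

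At the edge of the rule, 14 loci had exactly 60 reads and 8 lncRNA genes had 59. Just inside, the locus between PKN2 and LMO4 had 34 hypoxia and 26 normoxia reads, and that between PDCD6IP and ARPP21 had 42 and 18. Just outside, the locus between SLC8A1 and PKDCC had 25 and 34, and that between HDDC2 and NCOA7 had 20 and 39. Of the 1235 loci, 11 had too few reads in too many libraries to be tested, and 71 lncRNA genes below the minimum would have had enough.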

How the data were processed

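RNA of CMM10 was sequenced paired-end in 3 hypoxia and 3 normoxia libraries, and groups came from the sample titles. Per the submitters' processing notes the build is CanFam3.1. Which aligner and counter were run, and whether a pair was counted once, is not given in the sources used here. The deposited counts, per the file headers, hold total and uniquely mapped reads of each gene, with separate columns for exon, junction (exon-exon) and intron reads, and the deposited TPM values are the authors' expression values. TPM was used for levels only.

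Genes were kept by filterByExpr (15397 of 29822), scaled by TMM and compared with edgeR 4.0.16 (glmQLFit and glmQLFTest, robust, no covariates) in R 4.3.3, with Benjamini-Hochberg adjustment over all genes tested and calls below 0.05. CPM use TMM-scaled library sizes. The SE of an edgeR log2 fold change was derived as its absolute value over the square root of the quasi-likelihood F statistic. The estimated biological coefficient of variation in common was 4.76%. Gene reads per library (23196647 to 28804337) limit precision at low loci: 353 of the 1235 had 60 to 119 reads. Replicates differed by more than counting noise (median ratio to it 2.21 to 2.86), so none was merged. Shares per library were compared by two-sided exact permutation. The scripts were tested on simulated data. Alternatives were DESeq2 1.42.0, library totals, other filters, read types, minima and distances, a replicate block, and leaving out each library.

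The rule for names took the 8 largest called rises and 8 largest called falls that averaged 0.5 CPM or more with separate conditions, the 8 loci of highest CPM, the 10 highest with a symbol, and those nearest the minimum. The members and lists were chosen with earlier results of these data known. Of 1216 loci without a symbol, 0 matched the RefSeq gene table (another assembly) by identifier. No genome was used, so no sequence is shown. One result the data would give is not reported here.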

Additional observations from a re-analysis of the deposited data

How the results depend on the processing

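Direction held in every alternative for the counts and the median, with higher loci always exceeding lower ones. With library totals alone the median log2 fold change of the loci was 0.117 rather than 0.183. On exon reads only, 632 loci could be tested, with 115 higher and 33 lower, and 58 of 69 called pairs moved with their nearest coding gene. On intron reads only, an alternative chosen after seeing the data, 37 were lower (216 higher) and 91 of 110 pairs moved together. At least 5 kb from coding genes, 184 were higher and 40 lower of 782. These subsets hold fewer loci. DESeq2 gave 252 higher and 51 lower, and no filter 273 and 62. Leaving out 1 library gave 237 to 268 higher, 44 to 63 lower, medians of 0.157 to 0.210, 121 to 133 pairs moving together, and a difference in read share of 0.0733 to 0.595 percentage points. The lowest share difference was without hypoxia replicate 3 and the highest without hypoxia replicate 1.

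Deviations of libraries with equal replicate numbers were nearly uncorrelated (-0.085, 0.026 and -0.049). Yet the share of gene reads on the loci rose from replicate 1 to 3 under hypoxia (1.80%, 2.45% and 2.84%) and normoxia (1.71%, 2.16% and 2.29%). Total gene reads did not follow 1 order in both conditions. Whether equal numbers mark libraries handled together is not stated in the labels and was not settled here. A fit with the replicate number as a block called 280 higher and 59 lower, of which 273 and 56 were also called without it. Among the named loci it lost the calls of the FGFBP1 and ISL1 loci (edgeR adjusted p = 0.0771 and 0.0547). The 58 named loci had 788 alternative values: 732 kept direction and call, 41 kept direction but lost the call, 9 gained one and 6 reversed. These were the chromosome 7 locus at -0.557 on unique reads and 5 values near 0 that were not called: UBE2T at -0.0526 (library totals), -0.0151 (without hypoxia replicate 2) and -0.00687 (without normoxia replicate 3), and the DHX37 to ENY2 locus at 0.00828 (intron reads) and 0.00761 (without normoxia replicate 1). Leaving out 1 library, they ranged from -0.0151 to 0.0467 and from -0.0432 to 0.00761. The cause was not tested. Depth limits precision at loci with few reads, and 6 of the 8 largest falls lost their call without a single library.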
